A study of Mus musculus with 21 samples.

Results

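The comparison set unresected liver of Mdr2-/- mice, in which injury is chronic, against the liver of control mice 2 days after surgery, when the response to resection is early and acute. Its members were the 6 arrays titled KO on day 0 and the 3 arrays titled control on day 2, 9 of the 21 arrays of the series, chosen by title alone. Both were referred to the 3 control arrays of day 0, so that changes found in both kinds of injury could be told from changes found in either. Mdr2, also named Abcb4, moves phospholipid across the canalicular membrane of the hepatocyte into bile. Where it is missing, bile acids act as a detergent on the lining of the bile ducts, and mice with the deletion are known for long-standing inflammation around the ducts, scarring and, late in life, liver tumours. Partial hepatectomy sets off cytokine signalling through IL6 and STAT3, an acute phase reaction and the entry of hepatocytes into the cell cycle.

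All mice were males aged 9 months, and all underwent a 30% partial hepatectomy. Liver of day 0 is the lobe taken out at that operation, so it had not yet responded to the resection. KO mice, of strain FVB129P2, were mice 250, 254, 258, 312, 332 and 337. Controls were of strain FVB129P2/FVBNJ, with mice 263, 265 and 303 on day 0 and mice 263, 264 and 265 on day 2, so that mice 263 and 265 gave a sample on both days. Sham-operated mice were not among these groups. Between KO day 0 and control day 2, genotype, strain background and surgery differ together and cannot be told apart. Between KO day 0 and control day 0, genotype and strain background differ together and cannot be told apart. Changes named after chronic injury here are differences between these groups. In whole liver, fewer cells of a type and less RNA per cell cannot be told apart either. Values are deposited log2 signals. Those of control day 0 are given in the order of mice 263, 265 and 303, those of control day 2 in the order of mice 263, 264 and 265, and those of KO day 0 (n = 6) by their range and median. Gene lists are described by their tested members, those above a signal of 4 on at least 3 arrays. Counts are of members that passed at an adjusted p under 0.05. They are to be read beside the shares of all genes. In KO against control day 0 these were 6.79% higher and 2.87% lower. For control day 2 against control day 0 they were 5.23% and 4.28%. For KO day 0 against control day 2 they were 8.42% and 8.32%. A group whose arrays all lie at or under 4 is called near background, and a difference from it is a lower bound. Differences are on the log2 scale with their standard error (SE), and adjusted p-values come from limma.

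The liver label held: all 27 hepatocyte identity genes on the array were above a log2 signal of 4 on at least 1 array of each group, and Alb, which encodes albumin, was 15.07, 15.03 and 14.93 in control day 0, 14.92, 14.94 and 14.66 in control day 2 and from 14.96 to 15.12 (median 15.05) in KO day 0. Abcb4 itself was 9.68, 10.18 and 9.51 in control day 0, 9.23, 10.33 and 10.22 in control day 2 and from 7.59 to 8.96 (median 8.08) in KO day 0. Every KO array lay below every control array, by 1.58 ± 0.29 against control day 0 (adjusted p = 0.00126, limma), though a signal remained. The sources used here do not say where its probes lie relative to the deletion. The Gapdh 3′ minus 5′ log2 difference, a measure of RNA breakdown or incomplete labelling, was 9.5 in control day 2 array 265, 1.58 in control day 2 array 263 and 2.03 in KO array 337. In the remaining arrays of the 3 groups it lay between -0.2 and 0.17, control day 2 array 264 being at 0.07. Mean correlation with the own group was 0.884 to 0.923 in control day 2, 0.957 to 0.974 in KO day 0 and 0.979 to 0.981 in control day 0. RNA quality by this measure was lowest in the day 2 group, and its part in the day 2 results was not tested. Day 2 values are therefore also given with array 264 as the only array of control day 2, its spread being assumed to be that of the other groups. KO array 258 stood apart in its levels of many surgery genes, as described further on, and results that turn on it are given without it.

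The counts of genes called for chronic injury and for surgery lay close together, but they do not measure the sizes of the responses. The comparisons differ in their number of arrays, and each count depended on the arrays used. Of 7320 genes tested, 707 (9.66%) differed between KO day 0 and control day 0 at an adjusted p under 0.05 in limma, 497 higher (6.79%) and 210 lower (2.87%) in KO. For control day 2 against control day 0, the change after surgery, 696 genes passed (9.51%), with 383 higher (5.23%) and 313 lower (4.28%) on day 2. The direct comparison, KO day 0 against control day 2, called 1225 genes (16.7%), 616 higher (8.42%) and 609 lower (8.32%) in KO. Groups did not overlap for 19.8%, 25.7% and 13.5% of all genes in these comparisons. The count for surgery fell to 173 without control day 2 array 265, rose to 1283 without array 264, and was 108 with array 264 alone. With the mouse as a fixed block, in a fit of the control arrays alone that keeps 1 residual degree of freedom, it was 3. KO day 0 against control day 0 called 357 genes without control day 0 array 265. Scaling moved the balance of directions: with array medians centred, 381 genes were higher and 339 lower in KO against control day 0, and 428 higher and 945 lower against control day 2. Quantile normalization gave 508 and 924 in the latter. Centring shifted the median difference over all genes to -0.118 and -0.137 in these comparisons, from 0.0183 and -0.005, while quantile normalization shifted it to 0.112 for surgery and -0.11 for the direct comparison.

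The changes shared by chronic injury and surgery, in the same direction, numbered 182, 133 higher (1.82% of all genes) and 49 lower (0.669%). They made up 25.7% of the calls for chronic injury and 26.1% of those for surgery. Both changes are measured from the same control arrays, so this overlap has no test. In 25 of the 182 the sizes differed in the direct comparison, with 19 larger in KO and 6 larger after surgery. Another 5 genes changed in opposite directions, 3 of them higher (0.041%) and 2 lower (0.0273%) in KO. The changes of chronic injury that differ from surgery numbered 267, or 37.8% of its calls: the change in KO passed, the one after surgery did not, and both differed directly. Of these 193 were higher (2.64%) and 74 lower (1.01%). The changes of surgery that differ from chronic injury, the reverse case, numbered 314, 45.1% of its calls, with 158 higher (2.16%) and 156 lower (2.13%). For a further 253 genes called in KO and 195 called after surgery, the difference between both changes did not pass, so they are not set apart. With array 264 alone the shared, opposite, KO and surgery classes (opposite changes included) held 55, 3, 77 and 36 genes, and without KO array 258 they held 152, 5, 218 and 348. Without control day 0 array 265 the shared class held 49 genes and the KO class 173, and without control day 2 array 265 the surgery class held 71.

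**Figure D1:**
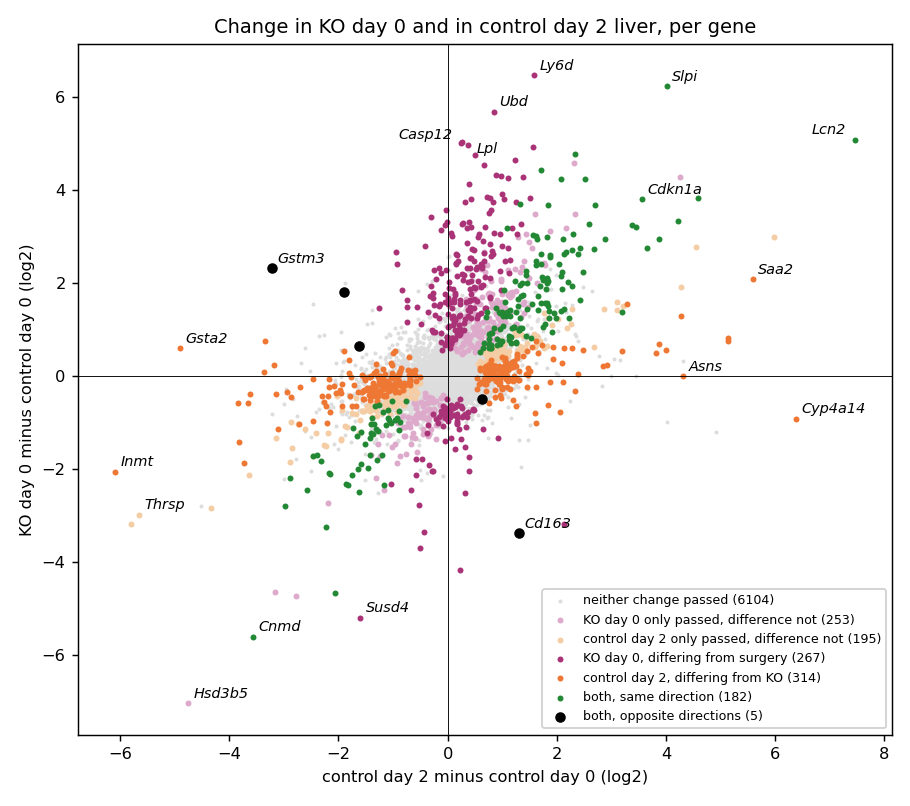
Log2 difference of control day 2 from control day 0 (x axis) and of KO day 0 from control day 0 (y axis), 1 point per gene for 7320 genes, coloured by class. The 182 shared genes lie in the quadrants of equal sign and the 5 opposite genes in the others, while the 267 genes set apart in KO spread along the y axis and the 314 set apart after surgery along the x axis.

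Lcn2, Slpi and S100a6 rose in both kinds of injury. Lcn2, which encodes lipocalin 2, a protein that starves bacteria of iron, was 5.61, 3.06 and 9.75 in control day 0, 12.48, 14 and 14.35 in control day 2 and from 10.08 to 14.14 (median 10.62) in KO day 0. All 9 injured livers lay above the 3 unresected controls, whose own values spread widely. The rise was 5.08 ± 1.11 in KO (33.9-fold; adjusted p = 0.00576, limma) and 7.47 ± 1.28 after surgery (177-fold; 0.00364), and with array 264 alone 7.86 (0.0497). Slpi, a secreted inhibitor of leukocyte proteases, was 6.32, 4.3 and 5 in control day 0, 9.11, 8.85 and 9.7 in control day 2 and from 10.49 to 12.52 (median 11.47) in KO day 0. Here the 3 groups stood in clear steps, with KO the highest. Slpi rose by 6.23 ± 0.47 in KO (adjusted p = 1.1e-07) and by 4.01 ± 0.54 after surgery (0.000696), and the direct difference of 2.22 ± 0.47 passed (0.00455), though not with array 264 alone (0.0887). S100a6, a calcium-binding protein of activated mesenchymal and epithelial cells, was 3.48, 3.17 and 3.1 in control day 0, 6.96, 7.94 and 7.51 in control day 2 and from 5.41 to 8.74 (median 6.36) in KO day 0. It rose from near background by at least 3.34 in KO (adjusted p = 0.000793) and 4.22 after surgery (0.00262), and the highest KO value was that of array 258. Igfbp1, a hepatocyte binding protein of insulin-like growth factors, rose by 3.21 in KO and 3.46 after surgery, and Scara5, a ferritin receptor, by 2.95 and 3.88. Sqle, squalene epoxidase of cholesterol synthesis, rose by 2.76 and 2.42. The Lcn2 call in KO was lost without control day 0 array 265 (adjusted p = 0.0763). The Igfbp1 call in KO was lost without KO day 0 array 258 or control day 0 array 265 or 303 (adjusted p 0.058 to 0.195). The Scara5 call in KO was lost without control day 0 array 263 or 265 (adjusted p 0.0966 to 0.105). The Igfbp1 call after surgery was lost without KO day 0 array 312, control day 0 array 265 or 303 or control day 2 array 264 or 265 (adjusted p 0.0515 to 0.177). The Scara5 call after surgery was lost without control day 0 array 265 or control day 2 array 265 (adjusted p 0.0671 to 0.0849). The Sqle call after surgery was lost without control day 0 array 303 or control day 2 array 265 (adjusted p 0.1 to 0.101).

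Receptors of the IL6 cytokine family moved in opposite directions from each other, and each moved the same way in both injuries. Osmr, the oncostatin M receptor, was 3.1, 2.88 and 3.11 in control day 0, 5.25, 5.96 and 8 in control day 2 and from 4.98 to 7.96 (median 6.1) in KO day 0. Both injured groups lay above the controls, which were near background, and overlapped each other. Its rise of 3.25 ± 0.71 in KO (adjusted p = 0.0057, limma) and of 3.37 ± 0.82 after surgery (0.0184; 0.218 with array 264 alone) differed by -0.12 ± 0.71, with a 95% interval from -1.61 to 1.36. Lifr, the leukaemia inhibitory factor receptor, was 10.76, 12.19 and 11.83 in control day 0, 11.06, 10.35 and 9.86 in control day 2 and from 8.77 to 9.49 (median 9.305) in KO day 0. KO arrays lay below all others, and control day 2 overlapped control day 0 at its upper end. It fell by 2.35 ± 0.30 in KO (adjusted p = 4.44e-05) and by 1.17 ± 0.35 after surgery (0.0418; 0.212 with array 264 alone), the fall in KO being the larger by 1.18 ± 0.30 (0.0141). Socs3, the feedback inhibitor of this pathway, was 8.11, 7.2 and 6.37 in control day 0, 9.42, 9.7 and 11.15 in control day 2 and from 6.42 to 10.33 (median 8.695) in KO day 0. Its difference passed after surgery, at 2.86 ± 0.79 (adjusted p = 0.0322; 0.332 with array 264 alone), and not in KO, at 1.43 ± 0.69 (0.228), and the direct comparison did not separate them (0.162). Of 18 IL6 and STAT3 response genes, 4 rose and 1 fell in KO and 4 rose and 1 fell after surgery, with medians of 0.69 and 0.75; with array 264 alone 1 rose and 0 fell after surgery. The Osmr and Socs3 calls after surgery were lost without control day 0 array 265 or 303 or control day 2 array 265 (adjusted p 0.0559 to 0.14). The Lifr call after surgery was lost without KO day 0 array 254 or 312, control day 0 array 265 or 303 or control day 2 array 264 or 265 (adjusted p 0.0515 to 0.187). The Lifr call in the direct comparison was lost without control day 2 array 263 (adjusted p = 0.0797). The IL6 and STAT3 response genes numbered as few as 1 rising in KO (without control day 0 array 265) and as few as 2 rising after surgery (without control day 0 array 265 or 303 or control day 2 array 265) with 1 array left out.

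Growth arrest and repair genes came next. Cdkn1a encodes p21, an inhibitor of cyclin-dependent kinases that p53 induces, and was 4.18, 3.89 and 5.01 in control day 0, 6.52, 8.97 and 8.26 in control day 2 and from 6.83 to 10.03 (median 7.88) in KO day 0. Both injured groups lay above the controls and overlapped each other. It rose by 3.8 ± 0.86 in KO (13.9-fold; adjusted p = 0.00767, limma) and by 3.56 ± 0.99 after surgery (11.8-fold; 0.033; 0.125 with array 264 alone), and the difference of 0.24 had a 95% interval from -1.57 to 2.05. Rad51b, a paralogue of the recombinase of homologous repair, was 4.26, 3.31 and 2.49 in control day 0, 6.08, 9.29 and 8.44 in control day 2 and from 6.77 to 7.73 (median 7.095) in KO day 0. It rose by 3.83 ± 0.70 in KO (adjusted p = 0.0013) and by 4.58 ± 0.81 after surgery (0.00416), also with array 264 alone (0.0118); another of its probe sets, near background, gave differences of -0.02 and 0.01. Gadd45a, another gene that p53 can induce, went the other way and was 7.5, 7.39 and 6.76 in control day 0, 4.2, 5.84 and 4.42 in control day 2 and from 4.19 to 6.28 (median 5.845) in KO day 0. Both injured groups lay below the controls. The fall was 1.7 ± 0.52 in KO (adjusted p = 0.0435) and 2.4 ± 0.60 after surgery (0.0204; 0.49 with array 264 alone). Of 20 p53 target genes, 3 rose and 1 fell in KO, and 4 rose and 1 fell after surgery, with medians of 0.39 and 0.51 against 0.0183 and 0.0767 over all genes. With array 264 alone 1 rose after surgery, and without KO array 258 2 rose in KO. Among 12 genes of double-strand break sensing and repair, a list without Rad51b, 1 rose in KO and 0 after surgery. Of all genes 6.79% and 5.23% rose. The riser was Blm, a helicase of recombination, by 0.97 ± 0.29 (adjusted p = 0.0429). The Cdkn1a call in KO was lost without control day 0 array 265 (adjusted p = 0.0527). The Gadd45a call in KO was lost without KO day 0 array 258, 312 or 332 or any control day 0 array (adjusted p 0.0674 to 0.158). The Blm call in KO was lost without KO day 0 array 254, 258, 332 or 337 or control day 0 array 265 or 303 (adjusted p 0.0549 to 0.302). The Cdkn1a call after surgery was lost without any control day 0 array or control day 2 array 264 or 265 (adjusted p 0.067 to 0.112). The Gadd45a call after surgery was lost without control day 0 array 263 or 265 or control day 2 array 265 (adjusted p 0.0601 to 0.0791). The p53 target genes numbered as few as 0 rising in KO (without control day 0 array 265) and as few as 1 rising after surgery (without control day 0 array 265 or 303 or control day 2 array 265) with 1 array left out.

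Several matrix and stellate cell genes rose in both. Col3a1, a fibrillar collagen chain, was 6.54, 5.71 and 7.43 in control day 0, 8.75, 9.48 and 9.02 in control day 2 and from 9.96 to 12.27 (median 10.74) in KO day 0. The 3 groups did not overlap, and KO array 258 held the highest value. It rose by 4.25 ± 0.56 in KO (adjusted p = 5.61e-05, limma) and by 2.52 ± 0.65 after surgery (0.0224; 0.159 with array 264 alone), with a direct difference of 1.72 ± 0.56 (0.0431; 0.0712 without KO array 258). The basement membrane chains Col4a1 and Col4a2 rose by 3.06 and 2.62 in KO and by 2.3 and 1.72 after surgery. Some stellate cell markers rose likewise. Pdgfrb, a receptor of platelet-derived growth factor, rose by 2.95 and 1.63, while another of its probe sets stood at 0.83 in KO and -0.04 after surgery. Vim, the intermediate filament vimentin, rose by 2.63 and 2.14, and Gas6, a ligand of the TAM receptors, by 2.24 and 2.09. None of the rises of Col4a1, Col4a2, Pdgfrb, Vim and Gas6 after surgery passed with array 264 alone (adjusted p 0.141, 0.119, 0.647, 0.124 and 0.0824, limma). Of 14 stellate cell and myofibroblast markers, 8 rose in KO and 5 after surgery, with 0 and 0 lower. Their medians were 1.68 and 0.64, and with array 264 alone 1 rose after surgery. The log2 of their summed level was 11.98 to 12.67 in KO, 11.39 to 11.75 in control day 2 and 10.57 to 10.6 in control day 0. The Col3a1 and Col4a2 calls after surgery were lost without control day 0 array 263 or 265 or control day 2 array 265 (adjusted p 0.0572 to 0.141). The Col4a1 and Vim calls after surgery were lost without control day 0 array 265 or 303 or control day 2 array 265 (adjusted p 0.0566 to 0.106). The Pdgfrb call after surgery was lost without KO day 0 array 254, 312, 332 or 337, any control day 0 array or control day 2 array 263 or 265 (adjusted p 0.0555 to 0.186). The Col3a1 call in the direct comparison was lost without KO day 0 array 254, 258, 312 or 337, control day 0 array 263 or control day 2 array 263 or 265 (adjusted p 0.0524 to 0.12). The stellate cell and myofibroblast markers numbered as few as 2 rising after surgery (without control day 0 array 265 or 303 or control day 2 array 265) with 1 array left out.

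Shared falls included bile acid, sterol and glycogen genes of the hepatocyte. Cnmd, which encodes chondromodulin, was 8.32, 8.69 and 8.78 in control day 0, 6.52, 3.79 and 4.79 in control day 2 and from 2.7 to 3.42 (median 2.955) in KO day 0. All KO values were near background, so its fall of 5.62 ± 0.54 there is a lower bound (adjusted p = 1.84e-06, limma), and it fell by 3.56 ± 0.63 after surgery (0.00416; 0.00639 with array 264 alone). Nr0b2, the bile acid-induced repressor SHP, was 9.74, 9.73 and 9.94 in control day 0, 8.36, 8.08 and 8.74 in control day 2 and from 8.02 to 9.16 (median 8.57) in KO day 0. Both injured groups lay below the controls and overlapped, with falls of 1.23 ± 0.31 in KO (adjusted p = 0.0143) and 1.41 ± 0.35 after surgery (0.0205; 0.11 with array 264 alone). Abcg5, part of the transporter that passes sterols into bile, fell by 1.05 and 1.13, and Gys2, the liver's glycogen synthase, by 1.2 and 1.58. Car1, a carbonic anhydrase, fell by 2.46 in KO and, to near background, by at least 2.57 after surgery, also with array 264 alone (adjusted p = 0.0424). Sult5a1, a sulfotransferase, fell by 4.67 and 2.06, further in KO (direct difference -2.61 ± 0.44; 0.00093), and Gstt3, of the theta class, by at least 3.26 in KO and by 2.22 after surgery. Hpd, an enzyme of tyrosine breakdown, was 14.04, 14.09 and 14.13 in control day 0, 12.8, 12.77 and 12.68 in control day 2 and from 13.09 to 13.78 (median 13.41) in KO day 0. Its fall was larger after surgery, 1.34 ± 0.20 (adjusted p = 0.00192) against 0.65 ± 0.18 in KO (0.0252), with a direct difference of 0.69 ± 0.18 (0.0145; 0.25 with array 264 alone). Of 27 hepatocyte identity genes 2, Nr0b2 and Hpd, fell in KO, where 2.87% of all genes fell. After surgery 2 fell and 1 rose, where 4.28% of all genes fell and 5.23% rose. Medians of the list were -0.21 and -0.17. The Nr0b2 and Abcg5 calls in KO were lost without control day 0 array 265 or 303 (adjusted p 0.0532 to 0.0988). The Gys2 call in KO was lost without control day 0 array 263 or 265 (adjusted p 0.0792 to 0.129). The Hpd call in KO was lost without any control day 0 array (adjusted p 0.0657 to 0.102). The Nr0b2 call after surgery was lost without control day 0 array 265 or 303 (adjusted p 0.066 to 0.0741). The Abcg5 and Sult5a1 calls after surgery were lost without control day 0 array 265 or 303 or control day 2 array 265 (adjusted p 0.0514 to 0.108). The Gys2 call after surgery was lost without control day 0 array 265 or control day 2 array 265 (adjusted p 0.0512 to 0.0701). The Gstt3 call after surgery was lost without any control day 0 array or control day 2 array 265 (adjusted p 0.0687 to 0.126).

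The 5 genes that moved in opposite directions were Gstm3, Slc39a4, Rarres2, Cd163 and Arih2. Gstm3, a glutathione transferase, was 10.86, 11.15 and 9.73 in control day 0, 7.68, 8.3 and 6.12 in control day 2 and from 11.29 to 13.52 (median 13.18) in KO day 0. Every KO array lay above and every day 2 array below the controls, KO array 258 being the lowest of the KO arrays. The rise was 2.32 ± 0.50 in KO (adjusted p = 0.00557, limma), the fall 3.21 ± 0.58 after surgery (0.00503; 0.154 with array 264 alone) and the direct difference 5.54 ± 0.50 (1.58e-06), which held in all alternatives run. Slc39a4, a zinc importer, was 7.58, 7.09 and 7.14 in control day 0, 5.35, 4.91 and 5.88 in control day 2 and from 8.43 to 9.52 (median 9.065) in KO day 0. Again the 3 groups did not overlap: it rose by 1.81 ± 0.27 in KO (adjusted p = 0.000246) and fell by 1.89 ± 0.32 after surgery (0.00356; 0.0152 with array 264 alone). Rarres2, which encodes the chemoattractant chemerin, was 12.32, 12.56 and 12.64 in control day 0, 11.41, 10.86 and 10.36 in control day 2 and from 12.82 to 13.3 (median 13.2) in KO day 0. It rose by 0.64 ± 0.18 in KO (adjusted p = 0.0299) and fell by 1.63 ± 0.21 after surgery (0.000696; 0.00202 with array 264 alone). Cd163, the haemoglobin scavenger receptor of resident macrophages, was 6.02, 6.36 and 5.34 in control day 0, 6.84, 7.87 and 6.95 in control day 2 and from 2.46 to 2.58 (median 2.525) in KO day 0. It was near background on every KO array and above the controls on every day 2 array. Its fall in KO of 3.38 ± 0.29 (adjusted p = 7.19e-07) is a lower bound, and its rise after surgery was 1.31 ± 0.33 (0.0216; 0.039 with array 264 alone). Arih2, a ubiquitin ligase, changed by -0.49 ± 0.15 and 0.62 ± 0.17, and its probe sets disagreed. The Gstm3 call in KO was lost without control day 0 array 303 (adjusted p = 0.0576). The Rarres2 call in KO was lost without KO day 0 array 254, 332 or 337 or any control day 0 array (adjusted p 0.0532 to 0.144). The Arih2 call in KO was lost without KO day 0 array 250, 254 or 312 or any control day 0 array (adjusted p 0.0736 to 0.198). The Cd163 call after surgery was lost without control day 0 array 303 or control day 2 array 264 or 265 (adjusted p 0.0502 to 0.109). The Arih2 call after surgery was lost without any control day 0 array or control day 2 array 263 or 265 (adjusted p 0.0577 to 0.11).

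**Figure D2:**
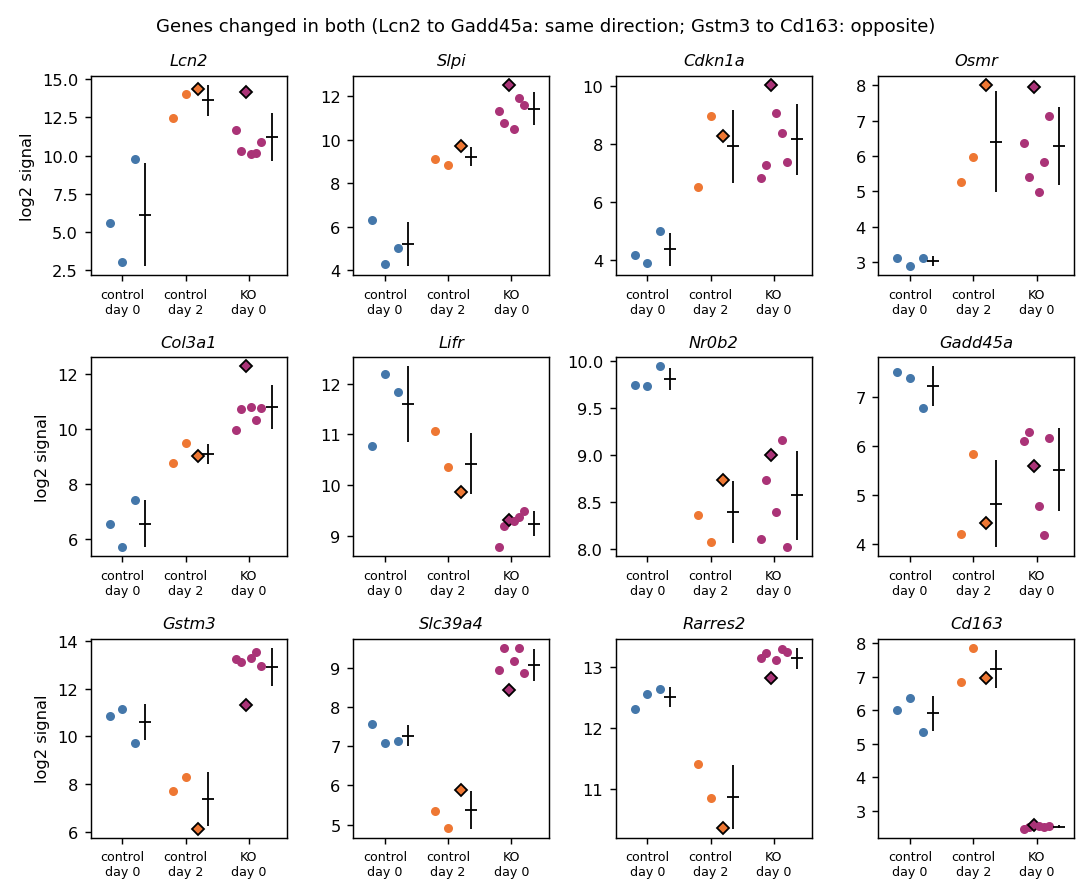
Log2 signal of 12 genes called in both comparisons, 1 point per array, in KO day 0 (6 arrays), control day 0 and control day 2 (3 each), with the mean and SD as a bar at the right of each group; black-edged diamonds mark KO array 258 and control day 2 array 265. In Lcn2 to Gadd45a the means of both injured groups stand on the same side of control day 0, though in Lifr control day 2 overlaps it. In Gstm3, Slc39a4, Rarres2 and Cd163 the injured groups stand on opposite sides.

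Most matrix genes tested rose in KO. Of 23 fibrillar collagen and matrix genes, 15 rose and 0 fell in KO, against 4 and 0 after surgery; 9 were higher and 1 lower in KO directly. The medians were 1.97, 0.86 and 1.19, and with array 264 alone 1 was higher directly. Lum, which encodes the small proteoglycan lumican, was 4.76, 5.62 and 5.02 in control day 0, 4.54, 7.08 and 6.69 in control day 2 and from 8.63 to 10.2 (median 9.275) in KO day 0. Control day 2 overlapped control day 0, and KO lay above both, by 4.31 ± 0.51 against control day 0 (adjusted p = 2.23e-05, limma) and 3.34 ± 0.51 against control day 2 (0.000458; 0.0747 with array 264 alone). Col6a3, a chain of beaded collagen, and Nid1, a basement membrane linker, were higher in KO by 3.83 and 3.74 than in control day 0 and by 2.32 and 2.5 than in control day 2. Fn1, fibronectin, was the exception: it rose after surgery by 0.86 ± 0.26 (adjusted p = 0.0473; 0.227 with array 264 alone) and stood at 0.13 ± 0.23 in KO (0.81), and another of its probe sets stood at -0.09 after surgery. Col1a1, the main chain of scar collagen, was 2.51, 2.6 and 2.17 in control day 0, 3.7, 5.89 and 4.62 in control day 2 and from 5.51 to 9.9 (median 6.87) in KO day 0. It rose by at least 4.58 in KO (adjusted p = 0.00214), while 2.31 ± 1.02 after surgery did not pass (0.154) and the direct difference did not either (0.086). The Fn1 call after surgery was lost without KO day 0 array 250, 254, 312 or 337, any control day 0 array or control day 2 array 264 or 265 (adjusted p 0.0551 to 0.196). The Fn1 call in the direct comparison was lost without KO day 0 array 250, 254, 312 or 332 or control day 2 array 264 or 265 (adjusted p 0.0548 to 0.187). The matrix genes numbered as few as 0 rising after surgery (without control day 0 array 265 or control day 2 array 265) with 1 array left out.

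Some enzymes that cut and cross-link matrix rose in KO. Of 22 remodelling enzymes and inhibitors on the array 14 were tested, of which 9 rose in KO, 0 after surgery, and 7 were higher in KO directly. Of the 22, 15 were above a signal of 4 on any KO array, 6 on any of control day 0 and 7 on any of control day 2. Among the tested genes 7 were near background in both control groups, 5 of them risers, and these could have passed only through other arrays where they were high, so that the counts are no support for a change of the list. With array 264 alone 1 was higher directly. Mmp12, macrophage elastase, was 3.29, 3.35 and 2.78 in control day 0, 3.38, 3.8 and 3.4 in control day 2 and from 6.36 to 8.3 (median 7.405) in KO day 0. Both control groups were near background, so its rise of 4.12 ± 0.34 (adjusted p = 4.83e-07, limma) and its direct difference of 3.74 ± 0.34 (1.58e-06; 0.00312 with array 264 alone) are lower bounds. Loxl1, which cross-links elastin, and Mmp2, a gelatinase, rose from near background by at least 3.19 and 2.71. Timp3, an inhibitor of these proteases, rose by 1.49 ± 0.40 (adjusted p = 0.0236). The Timp3 call in KO was lost without control day 0 array 265 or 303 (adjusted p 0.0994 to 0.132). The Loxl1 call in the direct comparison was lost without KO day 0 array 254, 258 or 332 or any control day 2 array (adjusted p 0.0506 to 0.0857). The remodelling genes numbered as few as 4 rising in KO (without control day 0 array 265 or 303) and as few as 4 higher in KO directly (without control day 2 array 265) with 1 array left out.

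Epithelial and bile duct genes came next. Of 10 bile duct and progenitor markers tested, 5 rose and 0 fell in KO and 0 rose and 1 fell after surgery, and 6 were higher in KO directly. Their medians were 1.41, 0.46 and 1.27, and with array 264 alone 3 were higher directly. Cdh1, the adhesion protein E-cadherin, was 6.52, 7.55 and 7.67 in control day 0, 8.42, 7.09 and 8.7 in control day 2 and from 9.56 to 10.04 (median 9.925) in KO day 0. No KO array overlapped a control array, and Cdh1 was higher in KO by 2.62 ± 0.31 (adjusted p = 2.24e-05, limma) and 1.8 ± 0.31 (0.00121; 0.000752 with array 264 alone). Krt8, a keratin of simple epithelia and hepatocytes, was higher by 1.9 ± 0.23 (adjusted p = 3.26e-05) and 1.39 ± 0.23 (0.00093). Tspan8, a tetraspanin, was 2.94, 2.9 and 2.79 in control day 0, 2.96, 2.93 and 2.98 in control day 2 and from 4.89 to 6.98 (median 5.905) in KO day 0. Its rise of at least 3.01 came from near background (adjusted p = 1.84e-06). Krt19, the classical keratin of ducts, was near background in control day 0 and did not pass in KO (0.93 ± 0.36; adjusted p = 0.123) or after surgery (0.82 ± 0.42; 0.215). The log2 of the summed level of the 17 markers on the array was 13.21 to 13.76 in KO, 11.52 to 11.97 in control day 0 and 11.89 to 12.64 in control day 2. Of these markers 11, 6 and 7 were above a signal of 4 on any array of these groups. Krt7, Epcam, Cftr, Cldn4, Cldn7, Anxa13 and Muc1 are among the 17 but did not pass the filter and were not tested. The sum is of linear signals, so genes of high signal, such as Krt8 (mean log2 signal 11.1), weigh more in it than genes of low signal. The Cd24a call in the direct comparison was lost without KO day 0 array 250, 254, 258, 332 or 337, any control day 0 array or control day 2 array 263 or 264 (adjusted p 0.0518 to 0.252).

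Genes of fetal liver and liver tumours are a further group. Of 14 tested, out of 19 on the array, 7 rose in KO and 3 after surgery, and 7 were higher in KO directly (3 with array 264 alone). Afp, Gpc3, Igf2, Dlk1 and Mdk, which include classical fetal liver genes, did not pass the filter and were not tested. Above a signal of 4 on any array were 14 of the 19 in KO, 8 in control day 0 and 14 in control day 2. Among the tested genes 2 were near background in both control groups, and 0 of these rose. This list was written with earlier results of these samples known, and is no independent evidence of a direction. Casp12, a caspase linked to stress of the endoplasmic reticulum, was 4.19, 3.92 and 3.05 in control day 0, 4.89, 3.05 and 4.01 in control day 2 and from 8.33 to 9.1 (median 8.77) in KO day 0. The control groups overlapped each other and KO stood far above both: by 5.03 ± 0.36 (32.7-fold; adjusted p = 7.07e-08, limma) and 4.77 ± 0.36 (1.38e-07; 5.57e-06 with array 264 alone). Anxa5, annexin A5, which binds phosphatidylserine, was 7.38, 7.3 and 6.33 in control day 0, 6.96, 7.81 and 7.73 in control day 2 and from 11.62 to 11.9 (median 11.76) in KO day 0. It was higher in KO by 4.75 ± 0.31 (adjusted p = 3.27e-08) and 4.25 ± 0.31 (1.2e-07; 0.00024 with array 264 alone), and its 6 KO values spread over less than those of either control group. Golm1, a Golgi protein used as a serum marker of liver cancer, rose in both, from near background, by at least 4.42 in KO and 1.71 after surgery (adjusted p = 1.84e-06 and 0.0358), and was higher in KO directly by 2.72 ± 0.42 (0.00053). Ly6d, a surface protein of lymphoid and epithelial cells, was 3.49, 3.52 and 3.34 in control day 0, 3.71, 6.78 and 4.61 in control day 2 and from 8.88 to 10.71 (median 9.985) in KO day 0. Its rise of at least 6.47 (adjusted p = 0.00119) differed from that of surgery by 4.89 ± 1.16 (0.00972), though not with array 264 alone (0.485), where the value was 6.78. Ubd, a ubiquitin-like protein induced by interferon and TNF, rose by at least 5.69 (adjusted p = 5.59e-05) and was higher directly by 4.83 ± 0.75 (0.000517; 0.0153 with array 264 alone). Anxa2, another annexin, was higher by 4.28 and 2.89 than in control day 0 and day 2. Tinag, a basement membrane antigen, was higher by at least 5.0 and 4.76, and Mgp, an inhibitor of calcification, by at least 4.93 and by 3.37. Ubd, Tinag and Mgp are not members of the list counted here. The Golm1 call after surgery was lost without any control day 0 array or control day 2 array 265 (adjusted p 0.0868 to 0.143).

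Immediate early and growth genes followed. Of 17 immediate early growth response genes, 5 rose in KO, 1 fell after surgery and 6 were higher in KO directly (0 with array 264 alone), with medians of 0.54, -0.26 and 0.74; without KO array 258 3 rose in KO, and without KO array 332 the counts were 4 in KO and 5 directly. KO array 332 stood apart in this list: the mean difference of its members from their means over the 12 arrays was 1.82, against -0.11 to 0.53 in the other KO arrays, -0.58 to 0.01 in control day 0 and -0.71 to -0.44 in control day 2. Btg2, an antiproliferative gene, was at 10.95 in that array. Klf6, a zinc finger transcription factor, was 4.76, 4.2 and 4.64 in control day 0, 5.24, 5.63 and 5.62 in control day 2 and from 6.38 to 8.26 (median 7.7) in KO day 0. It rose by 3.06 ± 0.41 in KO (adjusted p = 6.78e-05, limma) and was higher than on day 2 by 2.1 ± 0.41 (0.00298; 0.156 with array 264 alone). Jun, a subunit of AP-1, rose by 1.47 ± 0.44 (adjusted p = 0.0432) and was higher directly by 2.73 ± 0.44 (0.000763). Dusp1, the phosphatase that switches off MAP kinases, was the faller after surgery, by 2.3 ± 0.57 (adjusted p = 0.0194; 0.179 with array 264 alone), with -0.44 ± 0.49 in KO (0.673). Ccnd1, cyclin D1, which drives entry into the cycle, was 8.78, 8.49 and 8.42 in control day 0, 8.63, 8.82 and 5.75 in control day 2 and from 9.9 to 10.78 (median 10.45) in KO day 0. It was higher in KO by 1.85 ± 0.49 (adjusted p = 0.0224) and 2.68 ± 0.49 (0.00186; 0.0887 with array 264 alone), and the low value on day 2 is that of array 265. Cdkn2c, the inhibitor p18, rose by 2.83 ± 0.37 (adjusted p = 5.36e-05). The Jun call in KO was lost without KO day 0 array 254, 258, 312 or 332 or control day 0 array 263 or 265 (adjusted p 0.0587 to 0.308). The Ccnd1 call in KO was lost without any control day 0 array (adjusted p 0.0532 to 0.0937). The Dusp1 call after surgery was lost without control day 0 array 263 or 303 (adjusted p 0.0735 to 0.0768). The Dusp1 call in the direct comparison was lost without control day 2 array 263 (adjusted p = 0.062). The immediate early genes numbered as few as 1 rising in KO (without control day 0 array 265) and as few as 3 higher in KO directly (without control day 2 array 263) with 1 array left out.

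Of 33 mitosis genes on the array 15 were tested, and 4 of these rose in KO and 0 after surgery, 2 being higher directly (0 with array 264 alone). Of the 33, 14 were above a signal of 4 on any KO array, 3 on any array of control day 0 and 6 on any of control day 2. Among the tested genes 10 were near background in both control groups and passed the filter through other arrays, 1 of them among the risers, so the counts say nothing of the list as a whole. Without KO array 258 5 rose in KO, and without KO array 332 the counts were 3 in KO and 1 directly. Mki67, the proliferation antigen, was 3.08, 2.78 and 2.83 in control day 0, 3.14, 3.27 and 4.35 in control day 2 and from 4.2 to 5.96 (median 5.135) in KO day 0. KO values were low but above all day 0 controls, which were near background, and day 2 array 265 fell within their range. Its rise was at least 2.14 in KO (adjusted p = 0.0062, limma), and the direct difference of 1.45 ± 0.47 lay close to the threshold (0.0431). Cdk1, the kinase of mitotic entry, rose by at least 2.29 (adjusted p = 0.015), and Cdc20, an activator of the anaphase-promoting complex, by 2.89 ± 0.76 (0.0206); neither passed against day 2 directly (0.0512 and 0.219). Of 22 replication genes, 3 rose and 2 fell in KO, and 1 rose and 1 fell after surgery, with medians of 0.48 and 0.23. Mcm7, part of the replicative helicase, rose in both, by 0.71 and 1.26. Its other probe sets disagreed after surgery, at -0.32, 0.25 and 0.84, and stood at 0.51, 0.405 and 0.13 in KO. Mcm6 rose in KO by at least 2.47, and Tk1, thymidine kinase, fell in both by 2.08 and 2.18. Of 14 G1 cyclins and CDK inhibitors, 4 rose in KO and 1, Cdkn1a, after surgery, with medians of 0.11 and 0.20. The Cdk1 and Cdc20 calls in KO were lost without control day 0 array 265 or 303 (adjusted p 0.0756 to 0.141). The Mcm7 call in KO was lost without KO day 0 array 254, 258, 312 or 337 or any control day 0 array (adjusted p 0.0609 to 0.16). The Tk1 call in KO was lost without KO day 0 array 312, 332 or 337 or control day 0 array 265 or 303 (adjusted p 0.0504 to 0.161). The Tk1 call after surgery was lost without any KO day 0 array, any control day 0 array or control day 2 array 264 or 265 (adjusted p 0.0533 to 0.187). The Mki67 call in the direct comparison was lost without KO day 0 array 254, 312, 332 or 337, any control day 0 array or control day 2 array 263 or 264 (adjusted p 0.0519 to 0.138). The Mcm6 call in the direct comparison was lost without control day 2 array 263 or 264 (adjusted p 0.052 to 0.107). The mitosis genes numbered as few as 1 rising in KO (without control day 0 array 265 or 303) with 1 array left out. The DNA replication genes numbered as few as 1 rising in KO (without control day 0 array 263 or 303) with 1 array left out. The G1 cyclins and CDK inhibitors numbered as few as 1 rising in KO (without control day 0 array 265) with 1 array left out.

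Several lipid uptake genes rose in KO. Lpl, lipoprotein lipase, which frees fatty acids from lipoproteins, was 3.89, 6.17 and 6.25 in control day 0, 5.74, 5.47 and 6.22 in control day 2 and from 9.05 to 11.6 (median 10.45) in KO day 0. The control groups overlapped and KO lay above both, by 4.96 ± 0.67 (31.2-fold; adjusted p = 7.53e-05, limma) and 4.59 ± 0.67 (0.000314; 0.0278 with array 264 alone). Cd36, a fatty acid translocase, rose by 3.57 ± 0.53 (adjusted p = 0.000184), and Pparg, the nuclear receptor of fat storage, by 2.58 ± 0.47 (0.0013), both higher than on day 2 as well (0.00237 and 0.0163; 0.226 and 0.207 with array 264 alone). Of 20 lipid uptake and droplet genes, 5 rose and 1 fell in KO and 1, Apoa4, rose after surgery, with medians of 0.21 and -0.06. The drug efflux pumps Abcb1a and Abcb1b, near relatives of Abcb4, rose in KO by 2.26 ± 0.38 and 3.91 ± 0.40 (adjusted p = 0.000567 and 3.18e-06), the first of these from near background. Abcb1b was 3.66, 4.08 and 3.13 in control day 0, 4.04, 4.3 and 5.54 in control day 2 and from 7.26 to 7.9 (median 7.54) in KO day 0, and its direct difference was 2.91 ± 0.40 (0.000177; 0.00731 with array 264 alone). Of 23 bile acid synthesis and transport genes, 3 rose and 7 fell in KO and 0 rose and 4 fell after surgery, with medians of -0.45 and -0.59; with array 264 alone 0 fell. Cyp7a1, which makes bile acids from cholesterol, was 7.99, 8.08 and 10.74 in control day 0, 8.31, 8.49 and 3.24 in control day 2 and from 8.26 to 10.38 (median 9.985) in KO day 0. It passed only in the direct comparison (3.13 ± 1.05, adjusted p = 0.0484), where array 265 lay far below the rest and array 264 alone gave 0.764. The Abcb1a call in the direct comparison was lost without KO day 0 array 254 or control day 2 array 264 or 265 (adjusted p 0.0519 to 0.108). The Cyp7a1 call in the direct comparison was lost without KO day 0 array 250, 254, 312, 332 or 337, control day 0 array 263 or 265 or control day 2 array 265 (adjusted p 0.0549 to 0.348). The bile acid genes numbered as few as 3 falling in KO (without control day 0 array 265 or 303) and as few as 0 falling after surgery (without control day 0 array 265 or 303) with 1 array left out.

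Among the falls that set KO apart, Susd4, a complement regulator, was 7.81, 6.78 and 8.83 in control day 0, 7.92, 6.37 and 4.32 in control day 2 and from 2.5 to 2.68 (median 2.605) in KO day 0. Dct, dopachrome tautomerase, was 6.36, 6.25 and 5.86 in control day 0, 7.13, 5.83 and 6.17 in control day 2 and from 1.96 to 2.01 (median 1.98) in KO day 0. Both were near background on all KO arrays, and strain background differs with genotype. Their falls of 5.21 ± 0.51 and 4.17 ± 0.57 (adjusted p = 2.29e-06 and 7.83e-05, limma) and direct differences of -3.6 ± 0.51 and -4.39 ± 0.57 (0.000241 and 0.00013) are lower bounds in size. Capn8, a calpain of the stomach lining, was at -3.18 ± 0.64 in KO (adjusted p = 0.00296) and 2.13 ± 0.74 after surgery (0.0743), and Acot3, a peroxisomal thioesterase, at -3.71 ± 0.71 (0.00193) and -0.51 ± 0.82 (0.728). Cyp2b10, a P450 induced through the receptor CAR, fell by 2.77 ± 0.63 (adjusted p = 0.00737), with -0.52 ± 0.72 after surgery (0.681). Of 22 P450 genes of drug metabolism, 7 fell in KO and 2 after surgery, with 0 rising in KO and 0 after surgery, with medians of -0.45 and -0.50. Without KO array 258 or KO array 332 4 fell in KO, and with array 264 alone 9 fell in KO and 1 after surgery. Cyp2c54 and Slc22a7, an organic anion transporter, fell in KO by 4.75 ± 1.04 and 4.66 ± 1.21 (adjusted p = 0.00598 and 0.0195) and were not separated from surgery directly (0.204 and 0.418). The Cyp2b10 call in KO was lost without control day 0 array 263 (adjusted p = 0.0604). The Slc22a7 call in KO was lost without any control day 0 array (adjusted p 0.0521 to 0.0939). The Cyp2b10 call in the direct comparison was lost without control day 2 array 263 or 265 (adjusted p 0.0653 to 0.0704). The P450 genes numbered as few as 2 falling in KO (without control day 0 array 263) with 1 array left out.

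Some macrophage genes rose in KO, and Cd163 fell. Of 28 macrophage and Kupffer cell markers, 7 rose and 1 fell in KO and 1, Cd163, rose after surgery; 5 were higher and 1 lower in KO directly (0 and 1 with array 264 alone). The medians were 0.87, 0.38 and 0.56, and without KO array 258 4 rose and 1 fell in KO. Lyz2, the lysozyme of myeloid cells, and Fcgr3, a low-affinity receptor for IgG, rose by 2.46 ± 0.75 and 1.73 ± 0.52 (adjusted p = 0.0432 and 0.0414, limma). The log2 of the summed level of the 31 markers on the array was 13.82 to 14.33 in KO, 12.38 to 12.99 in control day 0 and 12.79 to 13.71 in control day 2, where 25, 23 and 25 were above 4 on any array. Cd14, the receptor for bacterial lipopolysaccharide, was 3.42, 2.33 and 3.76 in control day 0, 3.78, 7.04 and 11.48 in control day 2 and from 6.5 to 9.58 (median 7.275) in KO day 0. It rose in KO by at least 4.29 (adjusted p = 0.0451; 0.0921 without KO array 258), and day 2 values spread too widely for its difference of 4.26 to pass (0.0803). Of 20 endothelial markers, 3 rose in KO and 1, Cav1, after surgery, with medians of -0.11 and -0.20; Cav1, the coat protein of caveolae, rose by at least 4.77 and 2.33, and Cav2 by 3.26 in KO. The Lyz2 call in KO was lost without any KO day 0 array or any control day 0 array (adjusted p 0.0549 to 0.156). The Fcgr3 call in KO was lost without KO day 0 array 250, 258, 312 or 337 or any control day 0 array (adjusted p 0.0521 to 0.182). The Cd14 call in KO was lost without any KO day 0 array, any control day 0 array or control day 2 array 264 (adjusted p 0.0528 to 0.187). The Cav1 call after surgery was lost without control day 2 array 265 (adjusted p = 0.0559). The macrophage markers numbered as few as 1 rising in KO (without control day 0 array 265) and as few as 1 higher in KO directly (without KO day 0 array 258 or 337 or control day 2 array 263 or 265) with 1 array left out.

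**Figure D3:**
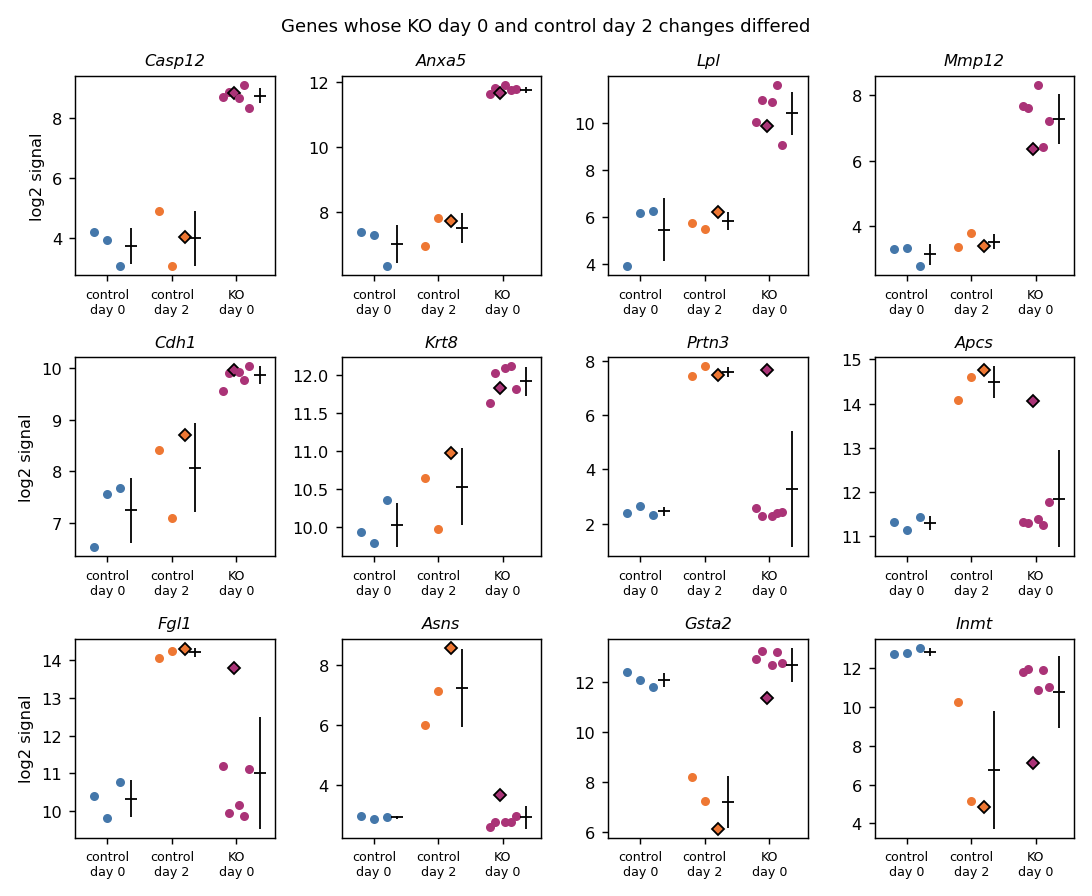
Log2 signal of 12 genes set apart in 1 kind of injury, 1 point per array in KO day 0, control day 0 and control day 2, with the mean and SD as a bar at the right of each group; black-edged diamonds mark KO array 258 and control day 2 array 265. Casp12 to Krt8 stand high in KO day 0, and Prtn3 to Inmt move on day 2, where KO array 258 lies close to the day 2 values in Prtn3, Apcs and Fgl1.

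Some acute phase genes rose in both groups, and their numbers depended on the arrays used. Fgl1, described here too, is counted among the IL6 and STAT3 response genes and not in this list. Of 26 acute phase genes, 14 rose and 0 fell after surgery, 4 rose in KO, and 12 were lower in KO directly, with medians of 1.62, 0.41 and -0.97. With array 264 alone 4 rose after surgery (median 1.9), 5 rose in KO (median 0.41) and 1 was lower in KO. Without the 3 arrays of high Gapdh difference 0 rose after surgery and 4 in KO; without KO array 258 2 rose in KO (median 0.12) and 17 were lower directly. Apcs, serum amyloid P, was 11.32, 11.13 and 11.44 in control day 0, 14.08, 14.61 and 14.76 in control day 2 and from 11.24 to 14.06 (median 11.35) in KO day 0. The KO arrays other than 258 lay between 11.24 and 11.76, at or just above the controls, while array 258 lay just under the lowest day 2 array. Its rise after surgery was 3.19 ± 0.54 (9.11-fold; adjusted p = 0.00356, limma; 0.0492 with array 264 alone), against 0.55 ± 0.47 in KO (0.553) and 0.10 without KO array 258. Fgl1, a fibrinogen-like protein that hepatocytes secrete, was 10.39, 9.81 and 10.78 in control day 0, 14.06, 14.25 and 14.3 in control day 2 and from 9.86 to 13.8 (median 10.64) in KO day 0. It rose by 3.88 ± 0.68 (adjusted p = 0.00416; 0.0777 with array 264 alone), and its 0.69 ± 0.59 in KO (0.557) was 0.13 without array 258. Saa2, a serum amyloid A, was 8.7, 7.6 and 11.65 in control day 0, 14.57, 14.91 and 15.24 in control day 2 and from 9.26 to 14.58 (median 11.08) in KO day 0. KO values bridged both control groups, and Saa2 rose after surgery by 5.59 ± 1.32 (adjusted p = 0.0167; 0.197 with array 264 alone), with 2.08 ± 1.14 in KO (0.3). Orm2, an orosomucoid, rose by 5.14 ± 1.45 (adjusted p = 0.0339; 0.273), while haptoglobin (Hp) and hemopexin (Hpx) rose in both, Hp by 0.84 in KO and 1.16 after surgery and Hpx by 0.51 and 0.59. Mbl1, a mannose-binding lectin of complement, rose after surgery by 1.2 ± 0.23 (adjusted p = 0.00594; 0.1 with array 264 alone). A2m and Saa3 passed only in the direct comparison, lower in KO by 6.12 ± 1.46 and 5.02 ± 1.19 (0.01 and 0.00941). The metallothioneins Mt1 and Mt2 were higher after surgery by 3.44 ± 1.15 and 4.31 ± 1.41, which did not pass (0.0646 and 0.0607), and lower in KO than on day 2 (-3.44 ± 0.99 and -3.99 ± 1.22; 0.0261 and 0.0333). The Saa2 call after surgery was lost without control day 0 array 265 or control day 2 array 265 (adjusted p 0.0603 to 0.0799). The Orm2 call after surgery was lost without any control day 0 array or control day 2 array 265 (adjusted p 0.063 to 0.154). The Hpx call after surgery was lost without control day 0 array 265 (adjusted p = 0.0545). The Saa2 call in the direct comparison was lost without KO day 0 array 254, 312 or 332, control day 0 array 263 or any control day 2 array (adjusted p 0.0512 to 0.12). The Orm2 call in the direct comparison was lost without KO day 0 array 254 or control day 2 array 265 (adjusted p 0.0501 to 0.134). The Mt1 call in the direct comparison was lost without KO day 0 array 254 or 312 or control day 2 array 263 or 265 (adjusted p 0.0508 to 0.0767). The Mt2 call in the direct comparison was lost without KO day 0 array 254, 312 or 332 or any control day 2 array (adjusted p 0.0514 to 0.0944). The A2m and Saa3 calls in the direct comparison were lost without control day 2 array 265 (adjusted p 0.0609 to 0.0705). The acute phase genes numbered as few as 5 rising after surgery (without control day 0 array 265 or control day 2 array 265), as few as 2 rising in KO (without KO day 0 array 254, 258, 312 or 337 or control day 0 array 263, 265 or 303) and as few as 2 lower in KO directly (without control day 2 array 265) with 1 array left out.

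Some genes of neutrophils rose on day 2, among them Prtn3, which is not in the list of granule genes counted below. Prtn3, proteinase 3 of neutrophil granules, was 2.41, 2.65 and 2.31 in control day 0, 7.46, 7.8 and 7.49 in control day 2 and from 2.27 to 7.65 (median 2.415) in KO day 0. It was near background in control day 0 and in the KO arrays other than 258, which lay within the day 2 range. The rise after surgery was at least 5.13 (adjusted p = 0.00987, limma; 0.125 with array 264 alone), and KO stood at -0.06 without array 258. S100a8 and S100a9, which pair as calprotectin, rose by 3.99 ± 1.0 and 4.28 ± 1.04 (adjusted p = 0.0208 and 0.0184; 0.203 and 0.193 with array 264 alone) and were lower in KO than on day 2 (-3.43 ± 0.87 and -2.99 ± 0.90). Of 4 neutrophil and myeloid granule genes tested, 3 rose after surgery and 1, Lcn2, in KO, with medians of 4.13 and 0.93; with array 264 alone 1 rose. Of the 12 on the array, 4 were above a signal of 4 on any day 2 array, and the defining granule genes Ngp, Camp, Ltf, Mpo and Elane were not. The S100a8 and S100a9 calls after surgery were lost without control day 0 array 265 or 303 or control day 2 array 265 (adjusted p 0.0595 to 0.107). The S100a8 call in the direct comparison was lost without control day 2 array 265 (adjusted p = 0.0893). The S100a9 call in the direct comparison was lost without KO day 0 array 250, 254 or 312 or control day 2 array 265 (adjusted p 0.0542 to 0.163). The neutrophil and myeloid granule genes numbered as few as 1 rising after surgery (without control day 0 array 265 or 303 or control day 2 array 265) with 1 array left out.

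A few genes of the amino acid response rose on day 2. So did Dnajc12, which is not in the list of ATF4 and amino acid stress genes. Asns, asparagine synthetase, was 2.96, 2.87 and 2.94 in control day 0, 5.99, 7.14 and 8.57 in control day 2 and from 2.61 to 3.66 (median 2.77) in KO day 0. It was near background in both unresected groups and high on every day 2 array, a rise of at least 4.31 after surgery (adjusted p = 0.00313, limma; 0.0337 with array 264 alone). Psat1, an enzyme of serine synthesis, was 2.91, 2.75 and 2.79 in control day 0, 3.22, 5.84 and 5.03 in control day 2 and from 2.57 to 2.8 (median 2.68) in KO day 0. Array 264 held its highest value, and it rose by at least 1.88 (adjusted p = 0.0192; 0.0031 with array 264 alone). Chac1, which breaks down glutathione, was 5.75, 5.55 and 5.57 in control day 0, 6.23, 7.84 and 7.1 in control day 2 and from 5.11 to 6.6 (median 5.56) in KO day 0, with a rise of 1.43 ± 0.37 (adjusted p = 0.0239; 0.0252 with array 264 alone). Dnajc12, a co-chaperone of the aromatic amino acid hydroxylases, was 6.14, 6.17 and 6.13 in control day 0, 8.51, 10.97 and 10.43 in control day 2 and from 6.14 to 8.29 (median 6.355) in KO day 0. It rose by 3.82 ± 0.61 (adjusted p = 0.00273; 0.00618 with array 264 alone), and KO array 258 held the highest KO value. Of 20 ATF4 and amino acid stress genes, 3 rose and 2 fell after surgery and 1 rose in KO, with medians of 0.26 and 0.03; with array 264 alone 5 rose and 0 fell. Herpud1, a protein of the degradation machinery of the endoplasmic reticulum, was among the fallers, by 1.04 ± 0.29 (adjusted p = 0.0323; 0.41). The Psat1 call after surgery was lost without control day 0 array 265 or 303 or control day 2 array 265 (adjusted p 0.0612 to 0.0756). The Chac1 call after surgery was lost without control day 0 array 265 or 303 or control day 2 array 264 or 265 (adjusted p 0.0612 to 0.081). The Herpud1 call after surgery was lost without control day 0 array 263 or 265 or control day 2 array 263 or 265 (adjusted p 0.0663 to 0.117). The Herpud1 call in the direct comparison was lost without control day 2 array 263 (adjusted p = 0.0583). The ATF4 and amino acid stress genes numbered as few as 1 rising after surgery (without control day 0 array 265 or 303 or control day 2 array 265) with 1 array left out.

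The RefSeq promoters of the lists (GRCm38.p6; windows from 250 bases before to 50 after a start) were searched on both strands for the composite element that ATF4 binds, TGATGNAAN. It was found in 9 of the 20 matched ATF4 and amino acid stress genes, or 39.1% of their 23 windows, and in 3.95% of all 32851 windows. Of these 9, Asns and Chac1 rose after surgery, Herpud1 fell there, and the other 6 did not pass in that comparison. Gars, 1 of these 6, was the member of the list that rose in KO. A STAT element, TTCNNNGAA, was found in 6 of 21 matched acute phase genes, 27.3% of their 22 windows, against 8.3% of all windows. An antioxidant response element, TGACNNNGC, was found in 6 of 22 matched NRF2 and glutathione genes, 18.2% of 33 windows, against 12.4%. These are matches of letters and not shown sites of binding. Asns and Chac1 were the carriers of the composite element that rose after surgery. The 250 bases before the start are shown for both and for Apcs, an acute phase gene that rose and carries a STAT element. They lie at chr6:7693210-7693459 (minus strand), chr2:119350992-119351241 (plus strand) and chr1:172895055-172895304 (minus strand), are written 5′ to 3′ along the gene, and carry the match in capitals, which in Chac1 reads on the opposite strand.
Asns: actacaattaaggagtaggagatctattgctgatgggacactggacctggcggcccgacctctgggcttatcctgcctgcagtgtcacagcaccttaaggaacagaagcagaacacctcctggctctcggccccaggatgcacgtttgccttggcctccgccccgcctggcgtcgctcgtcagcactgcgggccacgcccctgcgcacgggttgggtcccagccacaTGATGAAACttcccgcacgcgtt
Chac1: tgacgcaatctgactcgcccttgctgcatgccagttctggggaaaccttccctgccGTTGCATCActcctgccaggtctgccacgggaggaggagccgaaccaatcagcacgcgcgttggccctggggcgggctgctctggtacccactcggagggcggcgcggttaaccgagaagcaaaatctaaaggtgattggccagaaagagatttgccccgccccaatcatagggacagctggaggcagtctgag
Apcs: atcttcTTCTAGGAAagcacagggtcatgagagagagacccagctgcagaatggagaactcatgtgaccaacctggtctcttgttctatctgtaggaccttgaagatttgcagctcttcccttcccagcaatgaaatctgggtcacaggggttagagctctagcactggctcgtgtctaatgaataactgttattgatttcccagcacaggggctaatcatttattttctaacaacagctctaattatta
The matches begin at positions -23, -194 and -244 from the start. No such letters stood in the windows of Lcn2 and Saa2 (STAT element) or of Gsta2, Gstm1 and Gstm3 (antioxidant response element).

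Fatty acid handling changed on day 2. Cyp4a14, a fatty acid hydroxylase and a classical target of PPAR alpha, was 4.05, 4.21 and 2.71 in control day 0, 9.61, 12.19 and 8.33 in control day 2 and from 2.49 to 3 (median 2.71) in KO day 0. It was near background in KO, and every day 2 array lay above every other array: a rise of 6.39 ± 1.22 after surgery (83.7-fold; adjusted p = 0.00561, limma; 0.0211 with array 264 alone). Pdk4, the kinase that spares glucose by shutting pyruvate dehydrogenase, rose in both, by 2.75 ± 0.71 in KO (adjusted p = 0.0197) and 3.64 ± 0.83 after surgery (0.0137; 0.0341 with array 264 alone). Vnn1, pantetheinase, rose by 5.98 ± 1.23 after surgery (0.00862; 0.024 with array 264 alone), with 3.0 ± 1.07 in KO (0.0876). Of 25 fatty acid oxidation and PPAR alpha target genes, 4 rose after surgery, 1 rose and 1 fell in KO, and 7 were lower in KO directly (4 with array 264 alone), with medians of 0.32, -0.32 and -0.61. Fasn, fatty acid synthase, was 10.8, 9.1 and 11.22 in control day 0, 8.77, 7.99 and 6.95 in control day 2 and from 9.94 to 10.66 (median 10.32) in KO day 0. All day 2 arrays lay below all others, and it fell by 2.47 ± 0.62 (adjusted p = 0.0205; 0.201 with array 264 alone), with -0.06 ± 0.53 in KO (0.968). Thrsp, a lipogenic regulator that thyroid hormone induces, fell by 5.65 ± 1.18 after surgery (adjusted p = 0.00933; 0.0308 with array 264 alone) and stood at -2.99 ± 1.02 in KO (0.0753), a difference that did not pass directly (0.0818). Of 16 fatty acid synthesis genes, 3 fell after surgery (5 without KO array 258) and 0 in KO, with medians of -1.21 and -0.45. Of all genes 4.28% and 2.87% fell. With array 264 alone the median of the list after surgery was -1.015. The Pdk4 call in KO was lost without control day 0 array 265 or 303 (adjusted p 0.106 to 0.12). The Pdk4 call after surgery was lost without control day 0 array 265 or 303 or control day 2 array 265 (adjusted p 0.057 to 0.0696). The Fasn call after surgery was lost without control day 0 array 263 or 303 or control day 2 array 265 (adjusted p 0.0665 to 0.1). The Vnn1 call after surgery was lost without control day 2 array 265 (adjusted p = 0.0512). The fatty acid oxidation and PPAR alpha target genes numbered as few as 1 rising after surgery (without control day 2 array 265) and as few as 4 lower in KO directly (without control day 2 array 264 or 265) with 1 array left out. The fatty acid synthesis genes numbered as few as 1 falling after surgery (without control day 0 array 263 or 303 or control day 2 array 265) and as many as 6 falling after surgery (without control day 2 array 263) with 1 array left out.

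Many glutathione transferases fell on day 2. Gsta2, an alpha class enzyme, was 12.4, 12.09 and 11.82 in control day 0, 8.21, 7.26 and 6.14 in control day 2 and from 11.37 to 13.24 (median 12.86) in KO day 0. All day 2 arrays lay far below all others, and KO array 258 was the lowest KO array. It fell by 4.9 ± 0.73 (29.9-fold; adjusted p = 0.00184, limma; 0.0313 with array 264 alone) and was higher in KO than on day 2 by 5.5 ± 0.63 (4.2e-05). Gstm1, of the mu class, was 14.08, 14.07 and 13.59 in control day 0, 11.35, 12.05 and 8.79 in control day 2 and from 13.57 to 14.43 (median 14.26) in KO day 0. It fell by 3.18 ± 0.55 (adjusted p = 0.00364; 0.0403 with array 264 alone), and Gstm6 by 3.61 ± 0.47 (0.000696; 0.0341). Of 27 NRF2 and glutathione genes, 10 fell and 0 rose after surgery, 4 rose and 1 fell in KO, and 14 were higher in KO directly, with medians of -1.11, 0.29 and 1.16. With array 264 alone 4 fell and 6 were higher directly, with medians of -0.51 and 0.85. These enzymes are near-identical in sequence, so their probe sets may share signal. Hmox1, haem oxygenase, another NRF2 target, stood at 0.00 ± 0.55 in KO and 0.04 ± 0.64 after surgery (adjusted p = 0.998 and 0.98, limma). With array 264 alone its difference after surgery was 1.68, so the value near 0 depends on the arrays used. The NRF2 and glutathione genes numbered as few as 5 falling after surgery (without control day 0 array 265) and as few as 1 rising in KO (without control day 0 array 265 or 303) with 1 array left out.

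Some genes of amino acid breakdown, steroid handling and the clock fell on day 2. Otc, the urea cycle's ornithine transcarbamylase, was 12.63, 12.49 and 12.57 in control day 0, 12.25, 10.62 and 10.85 in control day 2 and from 11.99 to 12.57 (median 12.36) in KO day 0. Array 264 was the lowest of all, and the fall of 1.32 ± 0.32 (adjusted p = 0.0184, limma) was 1.94 with array 264 alone (0.00748). Of 25 urea cycle and amino acid breakdown genes, 6 fell after surgery (4 with array 264 alone) and 2 in KO, and 6 were higher and 1 lower in KO directly, with medians of -0.81, -0.38 and 0.43. Inmt, which methylates indole amines, was 12.71, 12.76 and 13.06 in control day 0, 10.25, 5.15 and 4.87 in control day 2 and from 7.12 to 11.97 (median 11.39) in KO day 0. Its fall of 6.09 ± 1.42 (68-fold; adjusted p = 0.0157; 0.0403 with array 264 alone) was largest on arrays 264 and 265, and KO array 258 lay far below the other KO arrays, the lowest of which was at 10.88. Serpina6, the carrier of corticosteroids in blood, fell by 3.82 ± 0.84 (adjusted p = 0.0121; 0.186), and Hsd3b3, a steroid dehydrogenase, by 3.84 ± 0.65 (0.00356; 0.00784). Cyp2f2, a P450 of the liver and lung, fell by 2.08 ± 0.44 (0.00933; 0.0332), and Sucnr1, the succinate receptor, by 3.73 ± 0.72 (0.00585; 0.036). Of 17 circadian clock genes, 3 fell after surgery (0 with array 264 alone) and 1 in KO, with medians of -1.24 and -0.67; Per3, a period gene, fell by 3.64 ± 1.03 (adjusted p = 0.0339), against -2.14 ± 0.89 in KO (0.151). No source used here states the hour of sampling. The Otc call after surgery was lost without any control day 0 array or control day 2 array 265 (adjusted p 0.05 to 0.0822). The Inmt call after surgery was lost without control day 0 array 265 or 303 or control day 2 array 265 (adjusted p 0.0539 to 0.0741). The Serpina6 call after surgery was lost without control day 2 array 265 (adjusted p = 0.0605). The Per3 call after surgery was lost without any control day 0 array or control day 2 array 264 or 265 (adjusted p 0.0544 to 0.105). The Otc call in the direct comparison was lost without control day 2 array 264 or 265 (adjusted p 0.0612 to 0.0718). The Inmt call in the direct comparison was lost without KO day 0 array 250, 254, 312 or 332 or control day 2 array 264 or 265 (adjusted p 0.0547 to 0.163). The Serpina6 call in the direct comparison was lost without KO day 0 array 250 or 254 or control day 2 array 265 (adjusted p 0.0609 to 0.229). The urea cycle and amino acid genes numbered as few as 2 falling after surgery (without control day 0 array 265 or 303), as many as 13 falling after surgery (without control day 2 array 263) and as many as 10 higher in KO directly (without control day 2 array 263) with 1 array left out. The circadian clock genes numbered as few as 0 falling after surgery (without control day 0 array 263 or 265 or control day 2 array 265) with 1 array left out.

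**Figure D4:**
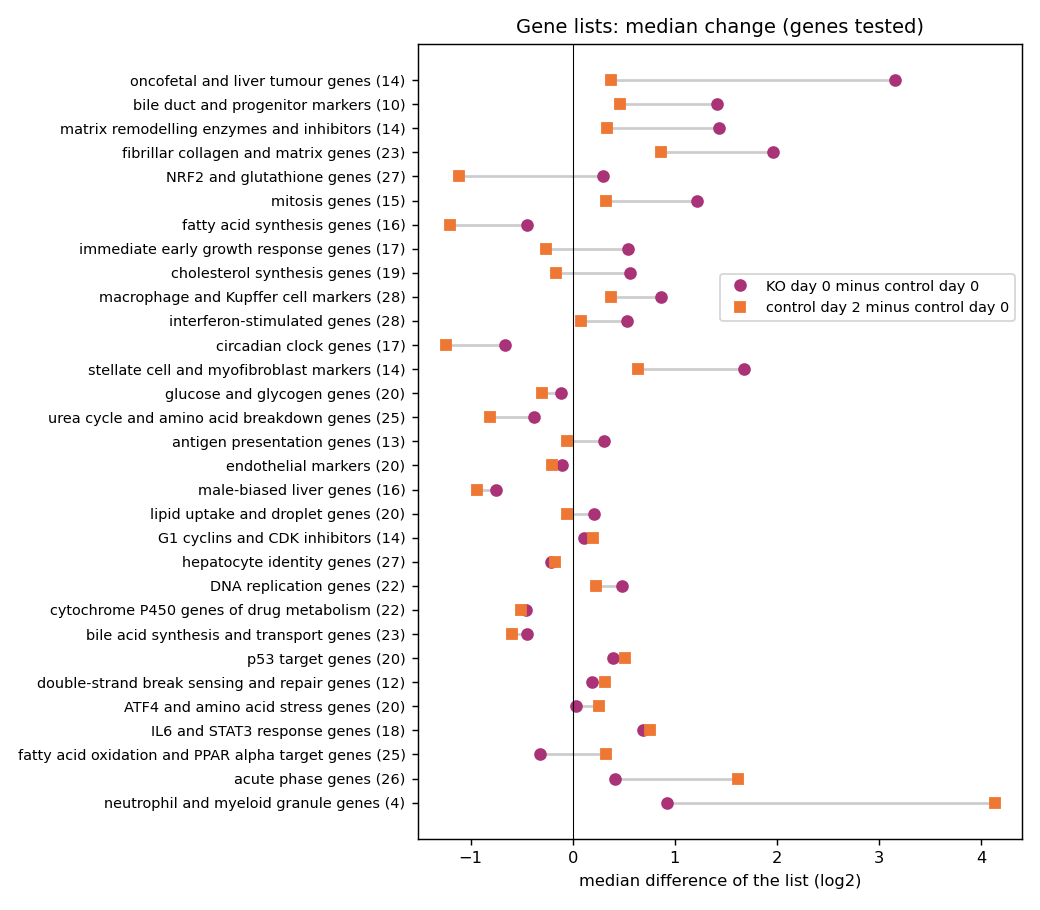
Median log2 difference of the tested members of each of 31 gene lists (number tested in brackets), as a circle for KO day 0 minus control day 0 and a square for control day 2 minus control day 0. The lists are ordered by the median of their members for KO day 0 minus control day 2, which need not equal the drawn gap. Acute phase genes have their square at 1.62 and their circle at 0.41. Medians of lists with members near background in the controls, such as the mitosis and remodelling lists, are drawn for description only, since the filter on low signal shapes them.

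KO livers differed among themselves in how far they shared the surgery response. Over the 696 genes that surgery changed, KO array 258 lay past the midpoint between the control day 0 and day 2 means, toward day 2, for 62.5%, and array 337 for 51%. The other KO arrays did so for 30.2% (mouse 250), 33.2% (254), 36.6% (312) and 40.5% (332), against 0.431% to 2.01% in control day 0 and 82.3% to 98.4% in control day 2. Among the 314 genes set apart after surgery the shares were 30.3% in array 258, 18.2% in array 337 and 1.27% to 6.05% in the other 4. Array 337 is the KO array with the raised Gapdh difference of 2.03, while array 258 had 0.12. For the 707 genes changed in KO, control day 2 arrays 263, 264 and 265 lay past the midpoint toward KO for 35.1%, 50.8% and 57.3%, and control day 0 for 1.56% to 2.26%. The control arrays set these midpoints, so the shares describe the arrays and are no test. Array 264 lay outside the range of control day 0, in the direction of the call, for 182 of the 182 shared genes and 298 of the 314 set apart; over all genes it lay above that range for 35.6% and below it for 27%, and it took part in choosing the genes.

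**Figure D5:**
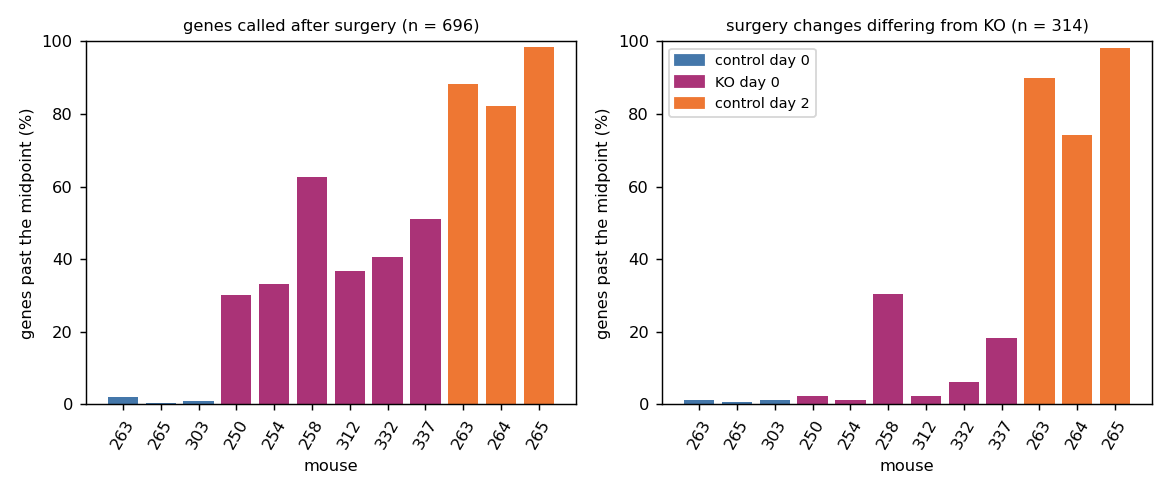
Share of genes, in percent, for which each of the 12 arrays (x axis, mouse) lies past the midpoint between the control day 0 and control day 2 means, toward day 2, as bars coloured by group; the left panel holds the 696 genes called after surgery and the right panel the 314 that differ from KO. KO array 258 has the highest bar of the KO arrays in both, at 62.5% and 30.3%.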

How the data were processed

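RNA of whole liver was hybridised to 1-colour arrays with 22690 probe sets. The deposited log2 values were made by the authors with GCRMA, per the submitters' processing notes; other steps are not stated there, and the number of arrays limits the precision. Probe sets with 1 symbol (20380) were used, the one with the highest mean per gene, and 7320 genes above a log2 of 4 on at least 3 arrays were tested. Groups follow the sample titles. One limma model (limma 3.58.1, R 4.3.3) of all 6 groups of the series (21 arrays, 15 residual degrees of freedom) gave the 3 contrasts, with Benjamini-Hochberg adjustment over all genes and a threshold of 0.05. Named genes were Abcb4, the 8 largest non-overlapping rises and falls of each contrast, the 8 strongest shared genes each way, up to 5 opposite each way, up to 4 members of each list by size, and a fixed set of markers. Members, lists and genes were chosen with earlier results of these data known.

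Titles with the same number are the same mouse, per the labels, so numbers pair samples. Over 9 such pairs the deviations from group means correlated from -0.0568 to 0.303 (median 0.119, different mice -0.0107). Arrays of 1 group come from different mice, and p-values rest on the spread between mice, pooled over all groups of the series. The median SD of genes was widest among resected controls of day 2 (0.475). Among unresected livers it was 0.29 for KO and 0.21 for controls. P-values of comparisons that use the day 2 arrays may therefore be too small, and those of KO day 0 against control day 0 too large. The latter comparison called 707 genes, and 902 without control day 2 array 265, which enters it only through the pooled spread. On simulated data of 7320 genes, a log2 difference of 1 was called in 62% of genes changed in KO day 0 against control day 0. For control day 2 against control day 0 this share was 41%, and for a difference of 2 the shares were 94% and 89%. The simulated noise had the same spread in every group and no array effects. Real control day 2 arrays spread more widely than the other 2 groups, so these shares need not hold for them. Alternatives were other filters, probe set means, 2 scalings, robust and weighted fits, a fit of the 3 groups alone, mouse blocks, an RNA quality covariate and leaving out arrays.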

Additional observations from a re-analysis of the deposited data

Results flagged for a closer look

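Within the 6 KO arrays, 22 of the 141 named genes and 1 of 31 list means had an array far from the others, judged by the gap to its neighbour against the whole range; chance alone gives about 1 in 20. Over all genes it was 802 of 7320, with 248 in array 258, 215 in array 337, 165 in array 332 and 37 to 76 in the rest. Array 258 stood high in Prtn3 at 7.65 (next 2.59), Apcs at 14.06 (11.76), Fgl1 at 13.8 (11.19), Dnajc12 at 8.29 (6.53) and Chac1 at 6.6 (5.57). These genes were described above with the acute phase, granule and amino acid groups. Asns at 3.66 (2.96) and A2m at 3.41 (2.86) were also highest in array 258, but their KO values were all under 4, near background. Col3a1 at 12.27 (10.81), Col1a1 at 9.9 (7.03) and Cd14 at 9.58 (7.57) were high there too. Array 258 stood low in the metabolic genes Inmt at 7.12 (next 10.88), Gsta2 at 11.37 (12.7), Gstm3 at 11.29 (12.96) and Pygl at 11.16 (11.71). It was also low in Cyp7a1 at 8.26 (9.95), Slc22a7 at 2.68 (5.44) and Car1 at 2.88 (3.72), and both of these Car1 values are under 4. The cause was not tested.

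In array 332, Btg2, an antiproliferative gene that p53 and growth signals induce, was at 10.95 (next 8.2), and the mean of the immediate early growth response genes was at 1.824 (next 0.5345), in log2 units from each gene's mean over the 12 arrays. Pdk4 was at 8.41 in array 312 (next 7.33), Acot3 at 5.26 in array 250 (3.61), and Cyp2g1 at 2.92 (2.36) and Fen1 at 6.85 (7.16) in array 254. Both Cyp2g1 values lie under 4, near background.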

How the results depend on the processing

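Of 423 results of named genes, 226 kept direction and side of the threshold in every setting and 0 reversed. The counts are given for KO day 0 against control day 0, control day 2 against control day 0 and KO day 0 against control day 2, then for changes shared by chronic injury and surgery, opposite changes, changes of chronic injury that differ from surgery and changes of surgery that differ from chronic injury. Where a count is not named under a setting it stayed within 1.5 times its value. Array weights gave 1414, 214 and 299, with 113 shared, 161 chronic and 60 surgery. The beta-actin difference as a covariate gave 88 for surgery and 253 directly, with 38 shared, 2 opposite, 134 chronic and 30 surgery. A fit of the 3 groups alone gave 349 and 768, with 3 opposite and 132 surgery. Means of probe sets gave 3 opposite changes, and no filter gave 3396 genes directly. Without the 3 arrays of high Gapdh difference, surgery called 78 and the direct comparison 141, with 37, 3, 66 and 24 in the 4 classes. Without control day 2 arrays 263 and 265, an alternative chosen after seeing the data, they called 108 and 154, with 55, 3, 77 and 36. Leaving out 1 array gave 357 (control day 0 array 265) to 902 (control day 2 array 265) for KO. Surgery ranged from 173 to 1283, the direct comparison from 784 to 1651 and the surgery class from 71 to 787, each lowest without control day 2 array 265 and highest without array 264. Shared changes ranged from 49 (without control day 0 array 265) to 283 (control day 2 array 263), opposite ones from 1 (control day 0 array 303) to 13 (control day 2 array 264) and the chronic class from 173 (control day 0 array 265) to 292 (control day 2 array 265). With the mouse as a fixed replicate block, in the controls alone with 1 residual degree of freedom, surgery called 3. With the mouse as a random replicate block (correlation 0.108) the pairing gave 720, 925 and 1235 calls and classes of 214, 6, 269 and 405. The causes were not tested.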

Other observations

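Further lists held few changes. Of 28 interferon-stimulated genes, 2 rose in KO and 1 after surgery (limma), with medians of 0.54 and 0.08. Of all genes 6.79% and 5.23% rose, so these counts set the list apart in neither comparison. Usp18, which removes the ubiquitin-like ISG15, was 2.37, 2.35 and 2.34 in control day 0, 2.73, 2.6 and 2.77 in control day 2 and from 4.35 to 6.11 (median 5.705) in KO day 0. Both control groups were near background, and the rise in KO was at least 3.18 (adjusted p = 0.00992). Of 13 antigen presentation genes, 1 rose in KO, 1 fell after surgery and 4 were higher in KO directly (0 with array 264 alone). H2-Aa, a chain of class II molecules, was 10.03, 8.75 and 8.63 in control day 0, 6.81, 6.29 and 4.26 in control day 2 and from 9.46 to 10.31 (median 9.885) in KO day 0. It fell by 3.35 ± 0.95 after surgery (adjusted p = 0.0347; 0.341 with array 264 alone) and stood at 0.75 ± 0.82 in KO (0.667).

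Of 16 male-biased liver genes, 4 fell in KO and 3 after surgery, with medians of -0.76 and -0.94; with array 264 alone 0 fell after surgery. Hsd3b5, a steroid dehydrogenase of male liver, was 11.8, 12.24 and 12.07 in control day 0, 10.95, 7.86 and 3.05 in control day 2 and from 2.57 to 7.53 (median 5.495) in KO day 0. It fell by 7.05 in KO (95% interval of the difference -9.84 to -4.26; adjusted p = 0.00173) and stood at -4.75 ± 1.54 after surgery (0.0581), and the direct comparison did not separate them (0.249). Of 20 glucose and glycogen genes, 1 fell in KO and 3 after surgery. Pygl, liver glycogen phosphorylase, was 11.93, 11.67 and 11.99 in control day 0, 10.65, 10.79 and 10.79 in control day 2 and from 11.16 to 11.99 (median 11.88) in KO day 0. It fell by 1.12 ± 0.21 after surgery (adjusted p = 0.00556; 0.0946 with array 264 alone) and stood at -0.11 ± 0.18 in KO (0.799), and Ugp2, which makes UDP-glucose, fell by 1.31 ± 0.28 after surgery (0.00933; 0.126 with array 264 alone). Of 19 cholesterol synthesis genes, 3 rose in KO and 1, Sqle, after surgery, with medians of 0.56 and -0.16. The H2-Aa call after surgery was lost without any control day 0 array or control day 2 array 265 (adjusted p 0.0741 to 0.162). The Ugp2 call after surgery was lost without control day 2 array 265 (adjusted p = 0.0512).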
